A study of Mus musculus with 6 samples.

Results

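S100 genes encode small calcium-binding proteins, and 9 of them were followed here in blood neutrophils of tumour-bearing mice: S100a1, S100a3, S100a4, S100a6, S100a8, S100a9, S100a10, S100a11 and S100a13. They were taken by name, and estimated counts and TPM (a level per transcript length, with the same total in every library) were summed over the transcripts of each gene. All 9 are among the 35853 genes with a transcript in the files, and 8 of the 9 were among the 11406 genes abundant enough to be tested. RNA sequencing libraries came from blood of wild-type BALB/C mice, drawn 4 weeks after 4T1 cells, a mouse mammary carcinoma line, had been implanted orthotopically. Red cells were lysed, and Ly6G+ cells, Ly6G being the usual marker of neutrophils in the mouse, were divided by their surface Ly6C. This gave 3 Ly6C-high and 3 Ly6C-low libraries. Both groups therefore share the strain, the tumour and the Ly6G gate, and blood of mice without a tumour was not analysed here. Nothing in the labels ties a library to a mouse, so the tests measure the spread between libraries, which may be technical.

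S100 proteins carry a pair of EF-hand calcium-binding loops, mostly work as dimers, and change shape on binding calcium so that they can grip target proteins. S100A8 and S100A9 pair as calprotectin, which is stored in the neutrophil cytosol, binds zinc and manganese away from microbes, and acts on TLR4 and RAGE when released. The other members work mainly inside the cell, S100A10 and S100A11 with annexins at membranes and S100A4 and S100A6 with the cytoskeleton and signalling proteins.

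All 9 genes lie on chromosome 3, where 15 of the 18 mouse S100 genes in the RefSeq gene table are found. Upstream sequences are shown for S100a8 and S100a9, the most abundant transcripts of these cells, for S100a11, the next in the family, and for S100a4, whose transcript was nearly absent. Each runs 5′ to 3′ on the strand of the gene, from 250 bases before the RefSeq start site, in lower case with motif matches in capitals. They are RefSeq sequences of build GRCm38.p6 from the C57BL/6J strain, not of the BALB/C mice: chr3:90668821-90669070 (plus strand) for S100a8, chr3:90695716-90695971 (minus strand) for S100a9, chr3:93520246-93520495 (plus strand) for S100a11 and chr3:90603520-90603769 (plus strand) for S100a4.
S100a8: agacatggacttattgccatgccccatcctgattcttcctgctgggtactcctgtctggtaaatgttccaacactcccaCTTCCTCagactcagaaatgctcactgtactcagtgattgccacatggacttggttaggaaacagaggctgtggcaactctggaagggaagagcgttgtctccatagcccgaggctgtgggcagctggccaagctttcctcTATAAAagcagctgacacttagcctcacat
S100a9: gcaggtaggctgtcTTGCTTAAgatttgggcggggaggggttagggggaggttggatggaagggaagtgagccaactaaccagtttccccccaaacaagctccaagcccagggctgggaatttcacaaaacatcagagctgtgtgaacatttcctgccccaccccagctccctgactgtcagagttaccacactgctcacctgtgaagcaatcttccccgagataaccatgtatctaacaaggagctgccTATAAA
S100a11: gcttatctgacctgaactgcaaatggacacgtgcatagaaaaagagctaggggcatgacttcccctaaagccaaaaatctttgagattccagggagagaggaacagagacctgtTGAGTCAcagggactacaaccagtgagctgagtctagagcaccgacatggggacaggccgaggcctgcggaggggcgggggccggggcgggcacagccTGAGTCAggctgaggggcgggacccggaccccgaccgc
S100a4: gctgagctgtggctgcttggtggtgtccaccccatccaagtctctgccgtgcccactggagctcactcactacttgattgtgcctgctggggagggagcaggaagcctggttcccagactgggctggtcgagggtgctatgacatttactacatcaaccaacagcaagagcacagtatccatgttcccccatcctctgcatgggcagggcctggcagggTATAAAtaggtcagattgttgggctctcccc

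The motifs searched, on both strands of windows of 300 bases (250 before to 50 after the start site), were the TATA box TATAAA, TTGCNNAA for C/EBP factors, GAGGAAG for PU.1 and TGACTCA for AP-1. Of 32851 such mouse windows 13.6% held TATAAA, 10.8% TTGCNNAA, 13.6% GAGGAAG and 5.20% TGACTCA. S100a8 had TATAAA at -30 to -25 and GAGGAAG on the opposite strand, printed as CTTCCTC, at -171 to -165, counted from the start site. S100a9 had TTGCNNAA at -236 to -229, and TATAAA at 1 to 6, on the listed start site itself. S100a11 had TGACTCA on the opposite strand, printed as TGAGTCA, at -136 to -130 and again at -38 to -32, and no TATAAA. S100a4 had TATAAA at -31 to -26 and GAGGAAG on the opposite strand downstream at 19 to 25, which is outside the printed stretch. Among the members not printed, S100a3 had TATAAA at -52 to -47 of one window, and S100a1, S100a6 and S100a13 held none of the 4 motifs. Of the 9 genes 8 had a window, S100a10 not being among them, and these letter matches describe the sequences, not binding.

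Total estimated counts were between 17192372 and 20973623 per library. Ly6C-low replicate 3 stood apart on the first principal component of all tested genes, at 38.0 against -19.7 to 3.91 for the other 5 libraries. Values without it are therefore given below for the tested S100 members, their sums and their ratio. Values of the marker, partner and regulator lists all include it. The sort was visible in the RNA: Ly6c1 measured 41.8, 56.6 and 45.3 CPM (counts scaled to a common library total) in the Ly6C-high libraries and 4.09, 7.70 and 5.36 CPM in the Ly6C-low ones, while Ly6c2 was likewise higher in all 3 Ly6C-high libraries. Neutrophil markers (10 of 10 tested) summed to between 39065 and 44965 TPM in the Ly6C-high and between 32437 and 39194 TPM in the Ly6C-low libraries. By log2 fold change, Ly6C-high over Ly6C-low, 9 were above and 1 below 0 (49.2% of all genes were above), with a median of 0.30. At an unadjusted p under 0.05 (edgeR) 4 were higher, Ly6g, Mmp8, Retnlg and Itgam, where 6.92% of all genes were. Monocyte and macrophage markers summed to 359 to 384 against 419 to 434 TPM, mostly Fcgr4 and Csf1r, with 4 of the 10 under 1 TPM in every library. Of the 7 tested 4 were above and 3 below 0. The 3 at an unadjusted p under 0.05 went against the sum, being higher in Ly6C-high (6.92% of all genes): Ccr2 (log2 fold change 0.68), Cx3cr1 (2.46) and Ms4a6c (1.03). Of these, Cx3cr1 had only 13.1, 24.5 and 13.3 estimated counts in the Ly6C-high libraries and 3.1 in each Ly6C-low library. Ms4a6c had 13 to 37.8 in a library. Eosinophil markers summed to 18.9 to 23.8 against 37.9 to 42.2 TPM, with Prg3 at 0 and Epx at 1 count over the 6 libraries. Of the 5 tested 4 were below 0, 3 of them at an unadjusted p under 0.05 (7.34% of all genes were lower at that level). The ranges were 666 to 880 against 556 to 735 TPM for basophil and mast cell markers, almost all of it Hdc (log2 fold change 0.34), and 685 to 2423 against 1729 to 2505 TPM for erythroid markers. Apart from Hdc, the 6 tested basophil and mast cell markers were below 0, with a median over all 7 of -1.73. Of these, Mcpt8 (-2.82), Prss34 (-1.60) and Cpa3 (-1.73) were at an unadjusted p under 0.05 (7.34% of all genes were lower at that level). The ranges were 4.48 to 7.33 against 3.34 to 6.19 TPM for lymphocyte and NK cell and 10.6 to 22.5 against 13.2 to 27.7 TPM for platelet markers. For tumour epithelial markers they were 1.95 to 4.14 against 2.48 to 5.36 TPM, with Krt8, Krt18 and Krt14 at 0. Most of this last sum was Cdh1 (mean 3.40 TPM). Epcam had at most 6 counts in a library, and Krt5 had 1 count in all. In each of these marker lists 0 genes passed an adjusted p of 0.05 (edgeR). The part of these other cells in the differences below was not tested, and fewer cells of a type cannot be told apart from less RNA per cell.

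By TPM the calprotectin genes dominated both groups, the S100a8 and S100a9 pair taking 31.6% to 34.9% of the total in a library. Of the estimated counts the pair took 8.18% to 8.87%. S100a9 was the most abundant of all genes by TPM in each of the 6 libraries and S100a8 the next, and the gene in 3rd place, Retnlg, averaged 1.47% of the TPM total. S100a9 made up 20.0%, 19.9% and 19.5% of the TPM total in the Ly6C-high libraries and 18.9%, 18.9% and 16.8% in the Ly6C-low libraries. S100a8 made up 14.9%, 14.2% and 15.1% in the Ly6C-high libraries and 13.6%, 14.3% and 14.8% in the Ly6C-low libraries. By this measure each Ly6C-high library was above each Ly6C-low library for S100a9 (as for 4.36% of all genes), while the groups overlapped for S100a8.

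With the other members added, the 9 genes took 36.9%, 36.2% and 36.6% of the TPM total in the Ly6C-high libraries (mean 36.6% ± 0.366, SD, n = 3) against 34.6%, 35.1% and 33.4% in the Ly6C-low group (34.4% ± 0.913, SD, n = 3). Of the estimated counts, where long transcripts weigh more, they took 9.42%, 9.08% and 9.15% against 8.73%, 8.73% and 8.81%. The groups did not overlap on either measure, and they differed by 2.21 percentage points of TPM and 0.46 percentage points of counts. Without Ly6C-low replicate 3 the differences were 1.71 and 0.486 percentage points. These sums are descriptions, with no test. The S100a8 and S100a9 pair held between 94.2% and 94.9% of the TPM of the 9 genes.

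**Figure D1:**
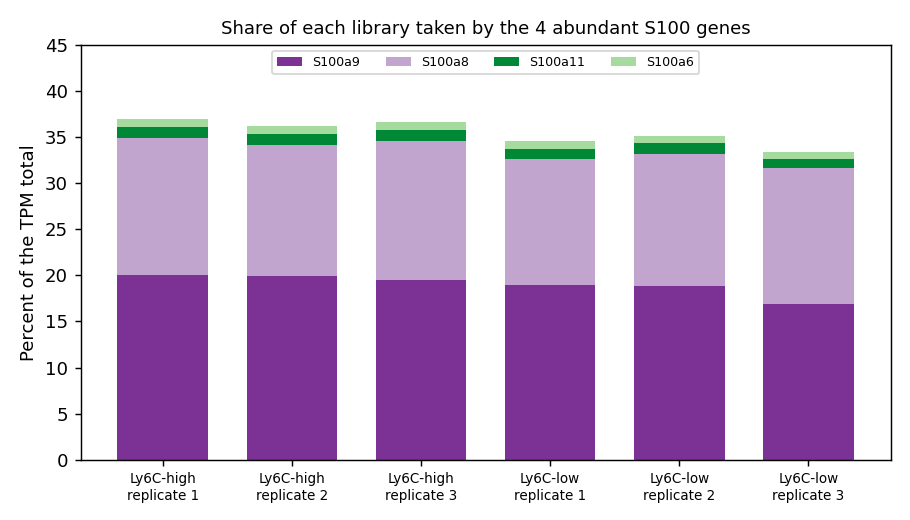
Percent of the TPM total (vertical axis, from 0) taken by S100a9, S100a8, S100a11 and S100a6, stacked for each of the 6 libraries. The stacks of the 3 Ly6C-high libraries reach between 36.2% and 36.9%, those of the 3 Ly6C-low libraries between 33.4% and 35.1%, and S100a9 and S100a8 fill most of each.

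Because the subunits pair, the ratio of S100a8 to S100a9 TPM within a library was taken as well. It was 0.747, 0.712 and 0.775 in the Ly6C-high and 0.720, 0.758 and 0.879 in the Ly6C-low libraries. S100a9 thus exceeded S100a8 in 6 of 6 libraries, the groups overlapped, and the highest ratio was that of Ly6C-low replicate 3. The mean log2 ratio, Ly6C-high minus Ly6C-low, was -0.07, and 0.01 without that library.

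The comparison between the groups was made on estimated counts with edgeR's quasi-likelihood test, in which CPM were scaled by the trimmed mean of M values (TMM). Of the 8 members tested 0 passed an adjusted p of 0.05, where 0.0351% of all genes tested did (4 of 11406, 0.0175% in each direction). Limma voom also called 0 of the 8, and DESeq2 called 0 of the 5 to which it gave an adjusted p, leaving S100a1, S100a10 and S100a3 without one. At an unadjusted p under 0.05 edgeR picked 1 member, S100a10, lower in the Ly6C-high group, against 14.3% of all genes (7.34% lower). Other settings picked other members at that level. With a replicate block edgeR gave S100a9 0.0456, S100a11 0.0440 and S100a10 0.0179, where 2056 of 11406 genes were under 0.05. DESeq2 gave S100a9 0.0310, S100a11 0.0437 and S100a10 0.0770, where 1402 of 11406 genes were under 0.05. In the reported edgeR fit the log2 fold change, Ly6C-high over Ly6C-low, was above 0 for 7 members and below 0 for 1 (49.2% of all genes were above 0). The median was 0.16 against -0.0045 over all genes. The 10 neutrophil markers had a median of 0.30, also with all 6 libraries. Without Ly6C-low replicate 3 the median of the members was 0.056, against 0.0017 over all genes. The marker median was not taken without that library, so 0.056 and 0.30 cannot be compared.

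S100a9 measured 55193, 54231 and 51773 CPM in the Ly6C-high and 49325, 48264 and 42150 CPM in the Ly6C-low libraries. The log2 fold change was 0.21 ± 0.12 (SE, n = 3 per group), with a 95% interval from -0.06 to 0.47 and an adjusted p of 0.462 (edgeR). S100a8 measured 37606, 35224 and 36516 CPM against 32361, 33331 and 33778 CPM. All Ly6C-high libraries were above all Ly6C-low libraries for both genes on this scale, as for 10.3% of all genes. Ly6C-low replicate 3 was the lowest for S100a9 but the highest of its group for S100a8. For S100a8 the log2 fold change was 0.14 ± 0.11 (SE, n = 3 per group), with an interval from -0.10 to 0.38 and an adjusted p of 0.610 (edgeR). Without Ly6C-low replicate 3 the log2 fold changes were 0.14 for S100a9 and 0.15 for S100a8. In folds, the intervals ran from 0.963 to 1.38 for S100a9 and from 0.930 to 1.30 for S100a8, and a p that misses the threshold does not place the groups at the same level.

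Among transcripts of S100a8, one listed as a retained intron took 1.26%, 1.23% and 1.46% of the gene's estimated counts in the Ly6C-high and 1.65%, 1.43% and 1.62% in the Ly6C-low libraries, and the groups overlapped. S100a9 was divided between coding transcripts, the lesser of which took 13.0%, 13.3% and 13.4% of its counts in the Ly6C-high and 13.4%, 13.5% and 13.6% in the Ly6C-low libraries. In the GENCODE M21 transcripts, S100a8 and S100a9 share no stretch of 31 bases with another gene. The index the authors used is not known, so what their counting shared was not tested.

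**Figure D2:**
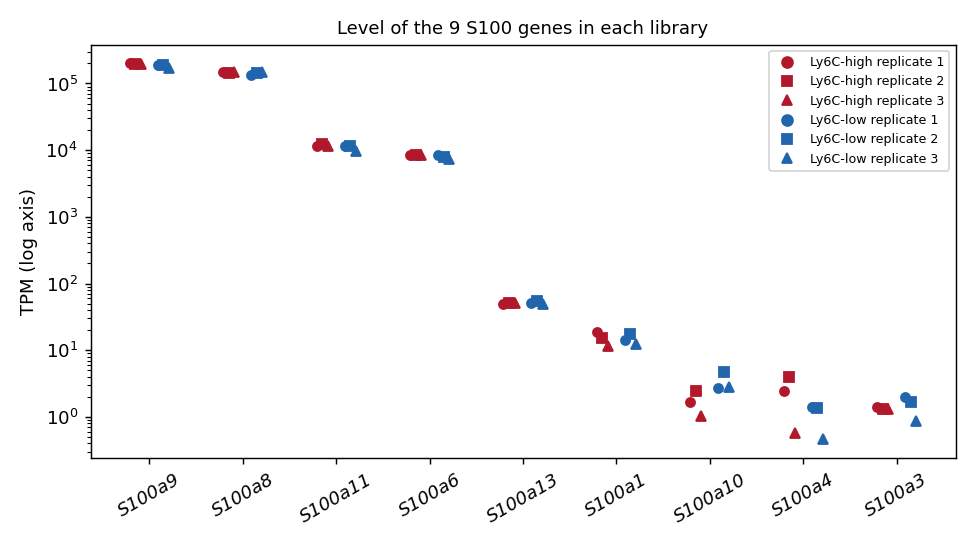
TPM (vertical log axis) of the 9 S100 genes in each of the 6 libraries, red for Ly6C-high and blue for Ly6C-low, with a marker shape for each replicate. Mean levels fall from 190031 for S100a9 and 144933 for S100a8 to 11449 for S100a11 and 8169 for S100a6, and the other 5 genes are at or below 54.0 in every library.

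The annexin partners stood far apart in level. S100a11, which binds annexin A1, averaged 11449 TPM and ranked between 5 and 9 among all genes, whereas S100a10, known as p11 and the partner of annexin A2, averaged 2.58 TPM. S100a11 measured 3203, 3363 and 3105 CPM in the Ly6C-high and 3022, 2898 and 2427 CPM in the Ly6C-low libraries. The groups did not overlap, with Ly6C-high on top (10.3% of all genes), and Ly6C-low replicate 3 was the lowest. The log2 fold change was 0.21 ± 0.11 (SE, n = 3 per group), interval -0.04 to 0.46, adjusted p 0.423 (edgeR), and without Ly6C-low replicate 3 it was 0.12. Of the 31-base stretches of S100a11 in GENCODE M21 48.9% also occur in another gene, mostly the pseudogene Gm12854, which was given at most 8.1 counts in a library.

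S100a10 had 14, 20 and 9 estimated counts in the Ly6C-high and 23, 37 and 21 in the Ly6C-low libraries, or 0.740, 1.07 and 0.441 CPM against 1.15, 1.94 and 1.11 CPM. All Ly6C-low libraries were above all Ly6C-high libraries, the opposite order to S100a11, as for 10.9% of all genes. The log2 fold change was -0.90 ± 0.40 (SE, n = 3 per group), interval -1.78 to -0.03, which did not pass after adjustment (adjusted p 0.340, edgeR). Without Ly6C-low replicate 3 it was -1.04. At 9 to 37 counts this was one of the least precisely measured members.

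Of the members that act on the cytoskeleton and in signalling, S100a6 was abundant and S100a4 nearly absent. S100a6, or calcyclin, measured 2514, 2528 and 2508 CPM in the Ly6C-high and 2436, 2264 and 1979 CPM in the Ly6C-low libraries. The Ly6C-high libraries lay within a narrow range above all Ly6C-low libraries (10.3% of all genes had this order), and Ly6C-low replicate 3 was again the lowest. The log2 fold change was 0.18 ± 0.11 (SE, n = 3 per group), interval -0.06 to 0.41, adjusted p 0.490 (edgeR), and without that library it was 0.10. The ratio of S100a11 to S100a6 TPM stayed between 1.34 and 1.47 in the 6 libraries.

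S100a4, or metastasin, which binds non-muscle myosin, had 12, 19 and 3 estimated counts in the Ly6C-high and 7, 6 and 1 in the Ly6C-low libraries. The groups overlapped, and at these counts the gene did not pass the filter and was not tested. In GENCODE M21 its 31-base stretches are shared to 49.2% with the predicted gene Gm42674, which was given 0 counts.

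Whether the 4 abundant genes separated the groups depended on the scale. By CPM 4 of the 8 tested members had all Ly6C-high libraries on top, S100a9, S100a8, S100a11 and S100a6, against 10.3% of all genes. By TPM 2 did, S100a9 and S100a11 (4.36% of all genes), which with S100a10 makes 3 without overlap in either direction (22.4%), and by percent of estimated counts 1 did, S100a9 (4.71%). On this last scale S100a10 and S100a13 had all Ly6C-low libraries on top, 2 of the 8 members against 20.5% of all genes. With library size as the only scaling the log2 fold changes were 0.10 for S100a9, 0.03 for S100a8, 0.11 for S100a11 and 0.07 for S100a6, on a scale whose median over all genes was shifted by -0.11.

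**Figure D3:**
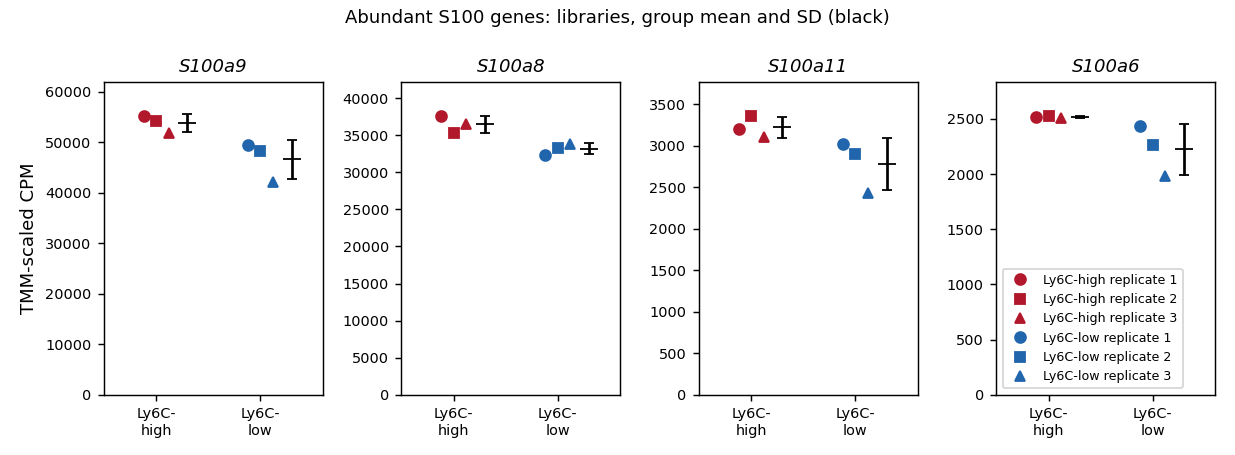
TMM-scaled CPM (vertical axes from 0) of S100a9, S100a8, S100a11 and S100a6, 1 point per library, with the group mean and SD in black (n = 3 per group). Each Ly6C-high point lies above each Ly6C-low point in all 4 panels, and Ly6C-low replicate 3 is the lowest library for S100a9, S100a11 and S100a6, at 42150, 2427 and 1979 CPM.

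The remaining members were low. S100a13, which takes part in the release of FGF1 and interleukin 1 alpha, measured 23.3, 23.7 and 23.2 CPM in the Ly6C-high and 22.9, 23.6 and 20.9 CPM in the Ly6C-low ones, with a log2 fold change of 0.06 ± 0.10 (SE, n = 3 per group; interval -0.16 to 0.28; adjusted p 0.828, edgeR). S100a1, best known from heart and muscle, measured 8.14, 6.56 and 4.75 CPM against 5.84, 7.07 and 4.93 CPM. For both genes the groups overlapped by CPM, and the interval of S100a1 ran from -0.35 to 0.59. S100a3, best known from hair follicles, had 5.1 to 16 estimated counts in a library, overlapping groups and a log2 fold change of 0.29 with an interval from -0.71 to 1.29. Without Ly6C-low replicate 3 the log2 fold changes were 0.012 for S100a13, 0.0058 for S100a1 and -0.032 for S100a3.

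By mean TPM the order of the family was S100a9 (190031), S100a8 (144933), S100a11 (11449), S100a6 (8169), S100a13 (51.1), S100a1 (11.5 to 19.0 in a library), S100a10 (2.58), S100a4 (1.69) and S100a3 (1.43). Each step down to S100a10 held in 6 of 6 libraries. S100a10 exceeded S100a4 in 4 of 6 and S100a4 exceeded S100a3 in 2 of 6, so these last 3 could not be ordered. The widest gap was between S100a6 and S100a13, where mean TPM differed 160-fold. Over the 6 libraries the coefficient of variation of TPM was 3.79% for S100a8, 6.10% for S100a9, 7.83% for S100a11, 5.87% for S100a6 and 3.44% for S100a13, and it rose to 76.7% for S100a4.

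**Figure D4:**
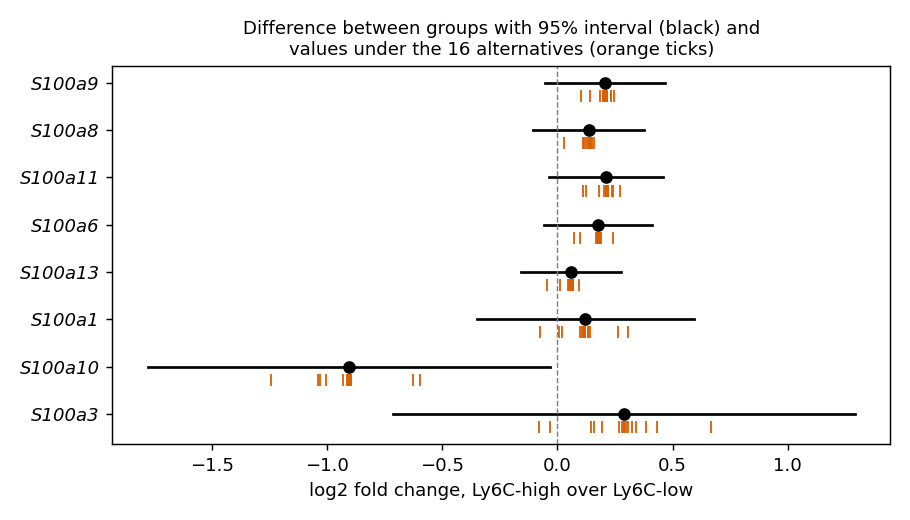
Log2 fold change, Ly6C-high over Ly6C-low, of the 8 tested S100 genes (horizontal axis) with the 95% interval in black and, as orange ticks, the values under 16 alternative settings. The intervals of 7 genes include 0, that of S100a10 runs from -1.78 to -0.03, and the interval of S100a3 is the widest.

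In the RefSeq order S100a8 and S100a9 stand next to each other, whereas S100a6 lies between S100a5 and S100a7a, and S100a11 is next to S100a10. Of the S100 genes outside the 9, S100a5 had 1 count over all libraries, and S100a16 and S100z had 0. Of the 8 non-members in the files 1 was tested, S100a7a, with 4.39, 5.33 and 4.21 CPM in the Ly6C-high and 3.54, 4.40 and 2.60 CPM in the Ly6C-low libraries. Its groups overlapped (log2 fold change 0.40 ± 0.22, SE, n = 3 per group; adjusted p 0.444, edgeR). The other 7 non-members had at most 6 counts in a library.

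Partners and regulators of the S100 proteins were described as lists, and in each of them 0 genes passed the edgeR test in either direction. Of 12 intracellular partners 9 were tested, 5 above and 4 below 0, with a median log2 fold change of 0.09, and 2 were higher at an unadjusted p under 0.05 (6.92% of all genes). Anxa1, the annexin bound by S100A11, measured 8602, 8746 and 7952 CPM in the Ly6C-high and 6981, 7110 and 5741 CPM in the Ly6C-low libraries. Anxa2, the partner of S100A10, measured 1855, 1884 and 1793 CPM against 1756, 1619 and 1294 CPM, so the abundant Anxa2 transcript stood beside an S100a10 transcript of a few TPM. Anxa11 measured 1025, 1072 and 923 CPM against 915, 826 and 688 CPM. In these 3 annexins the Ly6C-high libraries were above the Ly6C-low libraries (10.3% of all genes), with adjusted p of 0.241, 0.388 and 0.289 (edgeR), and Ly6C-low replicate 3 was the lowest, as for S100a11 and S100a6. Anxa6, the other annexin of the list, went the other way, with 41.0, 42.1 and 41.3 CPM against 61.9, 56.6 and 37.1 CPM, overlapping groups and a log2 fold change of -0.32 (adjusted p 0.416, edgeR).

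Of 12 receptors and adaptors that S100A8 and S100A9 are known to act on 11 were tested, 6 above and 5 below 0, with a median of 0.01. The most abundant were Myd88, the adaptor of TLR4, at a log2 fold change of 0.01 (adjusted p 0.968, edgeR), Emb, at 0.05 (0.847), and Cd14, a co-receptor of TLR4, at 0.19 (0.621). Mcam, a surface receptor for S100A8 and S100A9 that was chosen for mention after its values were seen, measured 50.7, 54.4 and 46.4 CPM against 35.9, 33.8 and 30.1 CPM. Its groups did not overlap, with Ly6C-high on top, as for 10.3% of all genes. Its log2 fold change of 0.60 ± 0.10 (SE, n = 3 per group) had an adjusted p of 0.120 (edgeR). Ly96 had the same order (log2 fold change 0.15, adjusted p 0.579, edgeR). Bsg (-0.14, 0.500) and Alcam (-0.09, 0.666) had the opposite order, with all Ly6C-low libraries on top, as for 10.9% of all genes.

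The NADPH oxidase, whose activation S100A8 and S100A9 help by delivering arachidonic acid, had 7 of 7 genes tested. All 7 were above 0 (49.2% of all genes were), with a median of 0.16, Rac2 at 0.16, Cyba at 0.02 and Ncf4 at 0.06. The 2 at an unadjusted p under 0.05 (6.92% of all genes were higher at that level) were Cybb (0.43) and Ncf1 (0.31). Their adjusted p were 0.285 and 0.275 (edgeR). Of 10 transcription factors linked to S100a8 and S100a9 8 were tested, 7 above (49.2% of all genes were) and 1 below 0, with a median of 0.18. The 3 at an unadjusted p under 0.05 were Cebpa (0.60), Cebpe (0.31) and Irf7 (0.44), all higher in Ly6C-high (6.92% of all genes). Their adjusted p were 0.283, 0.343 and 0.268 (edgeR). Cebpa was low, at 10.3, 11.8 and 10.6 CPM in the Ly6C-high and 9.08, 7.91 and 4.45 CPM in the Ly6C-low libraries, lowest in Ly6C-low replicate 3. Spi1, which encodes PU.1, stood at 0.11, Stat3 at 0.07 and Cebpb, which encodes a C/EBP factor, at -0.16, with adjusted p between 0.646 and 0.783 (edgeR). Cebpb measured 175, 295 and 331 CPM in the Ly6C-high and 287, 294 and 317 CPM in the Ly6C-low libraries, so its lowest and its highest value were both in the Ly6C-high group.

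The genes whose log2 CPM followed each S100 gene most closely over the 6 libraries were sought among 2973 genes of at least 50 CPM, as a description over few points that share their libraries and scaling. For S100a9 they were Ppp3ca (Pearson r 0.997), Snx27 (0.996) and Pdk3 (0.996). For S100a6 they were Anxa7 (0.998), Dgat2 (0.996) and Bst1 (0.995). All 6 of these genes were lowest in Ly6C-low replicate 3. For S100a8 the likest were Gng12 (0.955), Man2a1 (0.954) and Zyg11b (0.950), which were lowest in Ly6C-low replicate 1 or 2.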

How the data were processed

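Poly(A) RNA libraries from 6 sorted samples (3 Ly6C-high, 3 Ly6C-low; 100 ng of RNA, 13 PCR cycles, single-end reads of 75 cycles) were analysed, per the labels' protocols. Per the submitters' processing notes, the authors quantified transcripts with kallisto, and the build was GRCm39. Its version, index and strand setting were not given in the sources used here, so overlapping antisense reads cannot be told apart. The deposited tables held estimated counts, TPM and transcript lengths per transcript, per the file headers. Transcripts were matched by identifier to GENCODE M21 names (99.0% matched), and estimated counts and TPM were summed per gene. Counts were rounded and tested in R 4.3.3 by the quasi-likelihood method of edgeR 4.0.16 (filterByExpr, TMM, Benjamini-Hochberg over 11406 genes, threshold 0.05). DESeq2 1.42.0, limma 3.58.1 voom, another scaling, other filters, a replicate block and leaving out each library were alternatives. The fit was also run on simulated counts, and the outcome is not used in the text. At these depths the 95% Wilson interval of a member's share of counts was at most 0.00993 percentage points to either side, which covers counting error only. No pair of libraries matched within sampling noise. Stretches of 31 bases shared between genes were sought in the GENCODE M21 transcripts, and motifs in RefSeq promoter windows.

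The 9 genes, the gene lists and the markers were chosen with earlier results of these data known. The text names all 9 genes, of each pathway list every gene past the threshold and the 3 tested genes of highest mean TPM, for S100a8, S100a9 and S100a6 the 3 likest genes, and Ly6c1 and Ly6c2 as the check of the sort. Other genes named were chosen after their values were seen. Pathway lists were receptors and adaptors, intracellular partners, the NADPH oxidase, transcription factors and the rest of the S100 family.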

Additional observations from a re-analysis of the deposited data

How the results depend on the processing

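Over 16 alternatives 125 member log2 fold changes had an adjusted p (DESeq2 gave none for S100a1, S100a10 and S100a3), of which 121 kept their direction and side of the threshold and 0 passed it, the smallest adjusted p being 0.181 for S100a10 with the replicate block (edgeR). The sign changed for S100a13 with library size alone (-0.045), for S100a1 without Ly6C-high replicate 1 (-0.075, up to 0.31 without Ly6C-high replicate 3), and for S100a3 with length-scaled TPM (-0.080) and without Ly6C-low replicate 3 (-0.032, up to 0.67 without Ly6C-low replicate 1). The members' median log2 fold change was 0.051 with library size alone, and from 0.056 (without Ly6C-low replicate 3) to 0.21 when 1 library was left out. Over all genes, 4 passed in the reported fit (2 higher, 2 lower), 8 with library size alone (2 higher, 6 lower), 439 without the filter, 2 with length-scaled TPM and 126 with DESeq2 (83 higher, 43 lower). Leaving out 1 library gave from 2 (without replicate 2 of either group, or replicate 3 of Ly6C-high) to 22 (without Ly6C-low replicate 3). The replicate block gave 61. In their deviations from the group means, same-numbered libraries correlated at 0.24, -0.04 and 0.24, and differently numbered ones at -0.31 to 0.11. Ly6C-high replicate 2 correlated best with Ly6C-low replicate 1. The labels do not say whether the numbers pair samples, and these few libraries cannot settle it. The reported fit therefore has no block. The cause of these changes was not tested. Counts of 1 to 37 per library limit S100a4, S100a10 and S100a3, and 3 libraries per group limit the abundant members.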
